A study of Mus musculus with 2 samples.

Results

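The 46 genes described here are genes known to be induced by interferons, followed across the cell types of the mouse lung. They were taken by symbol from a list, and all 46 are among the 31053 genes that both count matrices hold. They fall into 7 groups by role: 10 GTPases of the kind that interferon gamma induces, 10 Ifit, Oas and Mx genes, 13 other antiviral effectors, 4 Ifitm genes, 4 transcription factors, 2 chemokines and 3 genes of antigen processing. Whole lung cells were profiled by droplet single-cell RNA-seq with 3′ tags and unique molecular identifiers (UMIs, which mark single captured transcripts). The series holds 1 library for each of 2 genotypes, each made from the pooled cells of 3 mice aged 5 weeks. The control mice carried floxed Lkb1 and no Cre, and the Cre mice carried the same floxed Lkb1 with Nkx2.1 Cre. Lkb1, whose gene symbol is Stk11, is a kinase that activates AMPK and related kinases. Nkx2.1 is a transcription factor of the lung epithelial lineage, so its Cre acts in alveolar and airway epithelial cells, while endothelial, mesenchymal and blood cells lie outside that lineage. With 1 pooled library per genotype the spread between mice cannot be had, so no test was made: every interval below is a 95% interval for counting error only, and a difference between the libraries cannot be told apart from a difference between mice, dissociations or library preparations.

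Interferons of type I (alpha and beta) and type III (lambda) signal through Jak1 and Tyk2 to a complex with Stat2 and Irf9 that binds the interferon-stimulated response element (ISRE) in promoters of Ifit, Oas, Mx and Isg15. Interferon gamma, made mostly by NK cells and T cells, acts through Jak1 and Jak2 and the gamma-activated site (GAS) of promoters, and it raises Irf1, which binds ISRE-like sites in turn. The GTPases of the Irg and Gbp families, the immunoproteasome and Cxcl9 are known as strong targets of interferon gamma, but most interferon-induced genes respond to both types. In the lung these genes are known for holding back viruses and intracellular bacteria, and a basal level is found without infection.

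Promoters of a part of the members are shown first, so that their matches to both elements can be compared. RefSeq start sites on build GRCm38.p6 gave a promoter for 37 of the 46 members, from 250 bases before to 50 after the start. The ISRE core was searched as GAAA and GAAA with any 2 bases between them, and the GAS as TTCNNNGAA, both on either strand; in Bst2 a match of each overlaps the other. Printed are the 160 bases before the start on the strand of the gene, with matches in capitals. Every printed promoter holds an ISRE core, which only 20 of the 37 members had. None is printed for Iigp1, Ifi27l2a, the Ifitm genes, Irf1 or Cxcl10, on which results below also turn.
Igtp, chr11:58199396-58199555, plus strand: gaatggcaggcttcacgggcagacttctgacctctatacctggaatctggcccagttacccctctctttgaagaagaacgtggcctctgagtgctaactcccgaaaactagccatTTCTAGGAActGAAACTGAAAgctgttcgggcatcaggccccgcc
Irgm2, chr11:58214817-58214976, plus strand: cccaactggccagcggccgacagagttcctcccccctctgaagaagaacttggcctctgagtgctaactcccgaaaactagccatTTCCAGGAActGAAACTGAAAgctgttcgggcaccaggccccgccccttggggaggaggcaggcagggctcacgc
Irgm1, chr11:48871421-48871580, minus strand: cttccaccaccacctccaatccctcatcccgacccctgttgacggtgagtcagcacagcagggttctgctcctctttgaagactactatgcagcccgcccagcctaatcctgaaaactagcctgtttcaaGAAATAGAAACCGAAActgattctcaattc
Gbp2, chr3:142620503-142620662, plus strand: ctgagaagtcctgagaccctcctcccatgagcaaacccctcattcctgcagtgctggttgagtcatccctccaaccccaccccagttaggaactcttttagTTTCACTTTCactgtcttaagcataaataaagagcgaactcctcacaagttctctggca
Gbp7, chr3:142530176-142530335, plus strand: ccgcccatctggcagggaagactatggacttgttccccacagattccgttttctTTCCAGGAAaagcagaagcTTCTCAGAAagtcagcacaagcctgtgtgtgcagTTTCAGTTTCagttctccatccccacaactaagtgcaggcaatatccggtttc
Isg15, chr4:156200819-156200978, minus strand: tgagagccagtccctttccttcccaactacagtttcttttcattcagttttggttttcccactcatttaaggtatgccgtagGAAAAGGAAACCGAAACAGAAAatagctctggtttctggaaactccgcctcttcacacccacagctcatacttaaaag
Ifit1, chr19:34640729-34640888, plus strand: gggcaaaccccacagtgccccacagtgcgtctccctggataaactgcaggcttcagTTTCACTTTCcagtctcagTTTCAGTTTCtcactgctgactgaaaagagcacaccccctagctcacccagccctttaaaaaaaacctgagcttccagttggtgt
Ifit3, chr19:34583369-34583528, plus strand: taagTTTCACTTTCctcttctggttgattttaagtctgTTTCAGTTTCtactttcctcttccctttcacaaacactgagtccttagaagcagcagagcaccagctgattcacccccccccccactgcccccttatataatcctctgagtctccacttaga
Ifit3b, chr19:34607797-34607956, plus strand: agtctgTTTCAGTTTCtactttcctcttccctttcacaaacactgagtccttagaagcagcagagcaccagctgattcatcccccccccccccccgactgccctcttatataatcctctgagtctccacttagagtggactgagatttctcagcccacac
Oas1a, chr5:120907526-120907685, minus strand: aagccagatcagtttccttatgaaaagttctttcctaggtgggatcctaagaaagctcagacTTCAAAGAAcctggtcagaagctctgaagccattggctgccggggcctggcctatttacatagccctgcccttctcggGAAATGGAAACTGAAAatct
Bst2, chr8:71537473-71537632, minus strand: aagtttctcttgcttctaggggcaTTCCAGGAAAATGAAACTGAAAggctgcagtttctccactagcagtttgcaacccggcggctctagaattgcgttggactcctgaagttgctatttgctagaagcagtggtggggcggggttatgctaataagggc

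The ISRE core was present in 7 of the 8 GTPase genes with a promoter in the table and in 5 of the 8 Ifit, Oas and Mx genes. Over the 37 members it was present in 20 (54.1%), against 3.99% of the 27025 symbols in the table. A GAS was found in 4 of the 8 GTPase genes and 2 of the 8 Ifit, Oas and Mx genes, against 9.55% of all symbols. Both motifs together stood in 4 of 8 GTPase promoters, in 1 of 8 Ifit, Oas and Mx promoters and in 0.614% of all. Igtp has its GAS 45 and its ISRE core 34 bases before the start, and Irgm2 has the same pair 75 and 64 bases before its start. In Isg15, 3 overlapping ISRE cores begin 78, 72 and 66 bases before the start. Ifit3 and Ifit3b are near-copies. Their windows were identical at 65.6% of 192 aligned positions, which include the ends where the shifted windows do not overlap. The share thus understates their likeness within the overlap. Reads from transcripts of such copies may be split between them by the counting, which promoter letters do not show. A match describes these letters only, and the 9 members with no promoter in the table are Usp18, Ifi27l2a, Iigp1, Ifi204, Gbp4, Zbp1, Oas2, Rtp4 and Mx1.

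After filters on genes, mitochondrial UMIs and doublets, 12455 control cells (69097618 UMIs, median 3611 per cell) and 14675 Cre cells (74497805 UMIs, median 3250) were kept, of which 59 shared a barcode between the libraries. Cells were gated into 33 classes by marker genes, none of them a member, and class names below mean cells that pass that gate. The gate placed 93.2% of control and 90.6% of Cre cells, and 26 classes had at least 50 cells in each library. In the compared classes the median cell carried more UMIs of its own markers than of any other class, except arterial endothelial cells, with 47.5 per 10000 UMIs of their own and 51.0 of general capillary markers. Stk11 stood at 48.9 and 29.3 CPM (ratio 0.599, 0.528 to 0.679) in control and Cre AT2 cells and 76.9 and 46.2 CPM (ratio 0.601, 0.380 to 0.968) in AT1 cells, the secretory and the flat gas-exchange cells of the alveolus. Its ratio was 1.11 in club and 0.903 in ciliated airway cells, with intervals that take in 1. The 3′ tags may lie outside the deleted exons, which the labels do not give.

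UMIs of each gene were summed per class and library and expressed as CPM, scaled to the same total of UMIs in every class and library. Control CPM and Cre CPM below are the levels in the control and the Cre library. A member was measured in a class when the libraries together held 20 or more of its UMIs. Its difference was log2 of Cre over control CPM, 5 CPM added to each, less the median of the same value over all genes with as many UMIs in the class. It was counted as higher or lower at 1.5-fold from that median. The all-gene median itself lay between -0.06 and 0.85 on the log2 scale, the latter in erythroid barcodes. Over the 26 classes, 760 pairs of member and class were measured, between 12 and 40 members per class. Of these, 49 were higher in the Cre library, 188 were lower and 523 lay within 1.5-fold. Among all genes, 7.39% of 220218 such pairs were higher and 7.12% lower. These shares are the background for the counts by group and by gene below. The median member lay below the all-gene median in 19 of 26 classes. Among the 188 lower pairs, 46 were of Ifitm genes and 17 of Ifi27l2a.

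Levels differed between cell types in both libraries before any genotype is considered. The 10 GTPases summed to 1674 control and 933 Cre CPM in venous endothelial cells and 1557 and 1165 CPM in general capillary cells, the microvascular cells that carry Gpihbp1. They summed to 771 and 536 CPM in arterial cells and 516 and 555 CPM in mesothelial cells, which cover the lung surface. At the other end stood AT2 cells with 22.1 and 24.9 CPM and club cells with 14.5 and 31.9 CPM. The 10 Ifit, Oas and Mx genes summed highest in neutrophils, at 418 and 405 CPM, followed by classical monocytes at 215 and 319 CPM, and lowest in AT2 cells at 3.22 and 6.58 CPM. Venous and general capillary cells thus had the highest GTPase sums, and neutrophils and classical monocytes the highest Ifit, Oas and Mx sums, in both libraries. Ifitm genes summed to 9423 and 5017 CPM in neutrophils and 7384 and 5959 CPM in classical monocytes, and to 130.1 and 125 CPM in B cells.

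**Figure D1:**
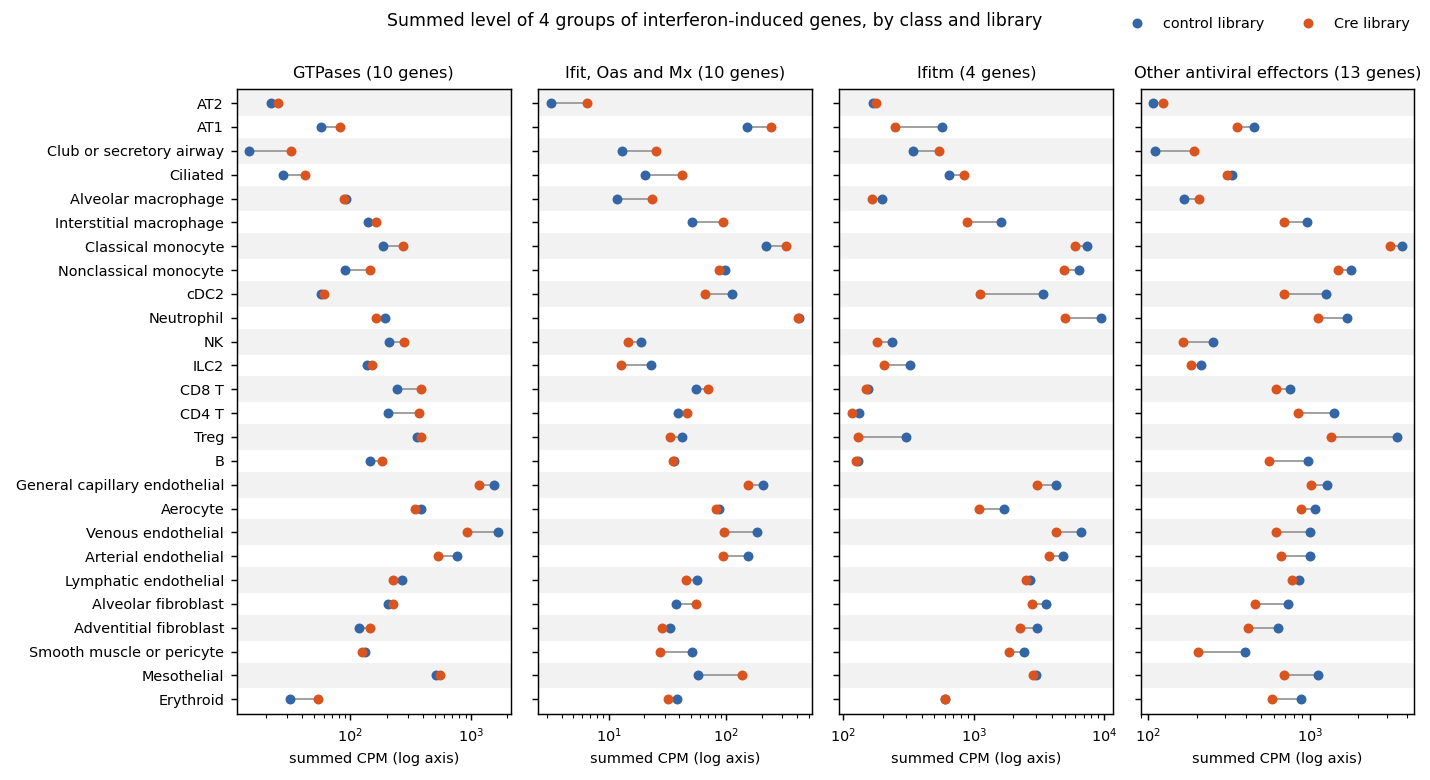
Summed CPM of the GTPases, the Ifit, Oas and Mx genes, the Ifitm genes and the other antiviral effectors (log axes) in each of 26 classes, blue for the control and orange for the Cre library, joined by a line. Venous endothelial cells have the highest GTPase sum in the control library (1674 CPM) and neutrophils the highest Ifit, Oas and Mx sum in both.

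Single members had their highest levels in several classes. Iigp1, a GTPase that coats the vacuoles of intracellular parasites, was highest in venous cells (669 control and 280.2 Cre CPM). Gbp2 was highest in mesothelial cells (294 control and 296 Cre CPM) and Gbp4, of the same family of guanylate-binding proteins, in venous cells in the control (200.2 CPM) and in general capillary cells in the Cre library (275 CPM). Oas3, which makes the oligoadenylates that activate RNase L, had 123 control and 155 Cre CPM in neutrophils, and Oasl1 had 136 control and 101 Cre CPM there. Oas3 had 0 and 2 UMIs in general capillary cells, where 3 counts would be 3.06 CPM in the control. Rsad2, which encodes the antiviral enzyme viperin, was highest in erythroid barcodes (381 control and 241 Cre CPM), with a UMI in 46 of 73 control and 161 of 413 Cre barcodes. Its share after thinning each cell to 1000 UMIs was 28.1% (17.6 to 40.8) of 64 cells and 19.0% (15.2 to 23.3) of 389 cells, against 0.117% and 0.142% of B cells.

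Venous endothelial cells had the most members lower in the Cre library of all 26 classes, with 0 of 33 measured members higher and 22 lower, against 10.7% and 9.21% of all genes. General capillary cells had 1 of 34 measured members higher and 12 lower, against 7.71% and 8.22% of all genes, and arterial cells had 1 of 28 measured members higher and 13 lower, against 11.1% and 10.8% of all genes. Aerocytes, the capillary cells specialised for gas exchange, had 2 of 26 measured members higher and 7 lower, against 10.6% and 9.6% of all genes. Lymphatic endothelial cells had 0 of 18 measured members higher and 5 lower, against 12.0% and 10.7% of all genes. In each of the 5 endothelial classes the share of members lower was above the share of all genes.

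Iigp1 showed the pattern in each blood endothelial class. It had 669 (605 to 739) control and 280.2 (243 to 321) Cre CPM in venous cells, 2.39-fold lower (2.01 to 2.84). In general capillary cells it had 607 (559 to 658) control and 272 (235 to 312) Cre CPM, 2.23-fold lower (1.90 to 2.64). Arterial cells had 196 control and 83.3 Cre CPM, a ratio of 0.425 (0.272 to 0.647), or 0.665 with classes taken from clusters. In aerocytes 45 UMIs in the control met 2 in the Cre library, a ratio of 0.0611 (0.00718 to 0.234), or 0.127 with cells thinned to 1000 UMIs. Of cells thinned to 1000 UMIs, 33.1% (27.7 to 38.8) of 293 cells held Iigp1 in control general capillary cells and 18.4% (13.6 to 24.1) of 228 cells in Cre cells, with 34.0% and 19.0% before thinning, while AT2 cells had 0.225% and 0.0619%. Fewer cells thus held a UMI in the Cre library, and both shares were above those of AT2 cells. Outside endothelium Iigp1 was counted as higher in club cells (2.85 control and 13.7 Cre CPM) and adventitial fibroblasts (24.1 control and 43.2 Cre CPM).

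Irgm1, which governs the Irg family from internal membranes, was lower in 5 of the 21 classes where it was measured and higher in none. It had 176 (150.3 to 204) control and 61.5 (44.8 to 82.2) Cre CPM in general capillary cells, 2.86-fold lower (2.05 to 4.06), and its ratio was 0.140 with cells thinned to 1000 UMIs. In venous cells it had 113 control and 38.6 Cre CPM, a ratio of 0.343 (0.212 to 0.540), or 0.594 with cells thinned to 1000 UMIs. The arterial value rested on 27 and 9 UMIs and turned from 0.454 to 0.694 under the stricter cell filter and 2.20 with cells thinned to 1000 UMIs. Igtp, a close relative of Irgm1, had 94.9 control and 50.5 Cre CPM in general capillary cells, a ratio of 0.532 (0.354 to 0.787). Ifi47, another GTPase of the Irg family, had 165 control and 77.3 Cre CPM in venous cells, a ratio of 0.469 (0.331 to 0.658).

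In general capillary cells Irgm1, Igtp and Iigp1 were the GTPases counted as lower, while Irgm2, Ifi47 and all 5 guanylate-binding proteins lay within 1.5-fold of the all-gene median. There Gbp7 had 163 control and 172 Cre CPM, Gbp4 had 191 control and 275 Cre CPM and Gbp2 had 85.7 control and 113 Cre CPM. As a group the 10 GTPases had a median of -0.06 in general capillary cells, with 3 of 10 lower and 0 higher. In venous cells the median was -0.72, with 6 of 10 lower, Gbp3, Gbp5 and Gbp7 among them. In arterial cells it was -0.66, with 5 of 10 lower and Irgm2 higher, on 15 and 19 UMIs. Arterial Gbp4 had 106 control and 55.5 Cre CPM, a ratio of 0.523 (0.296 to 0.892) that came to 1.07 with classes taken from clusters and 0.331 with a gate margin of double the size. The near-copies within the Gbp family share sequence, so single Gbp values are uncertain where reads could be split.

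**Figure D2:**
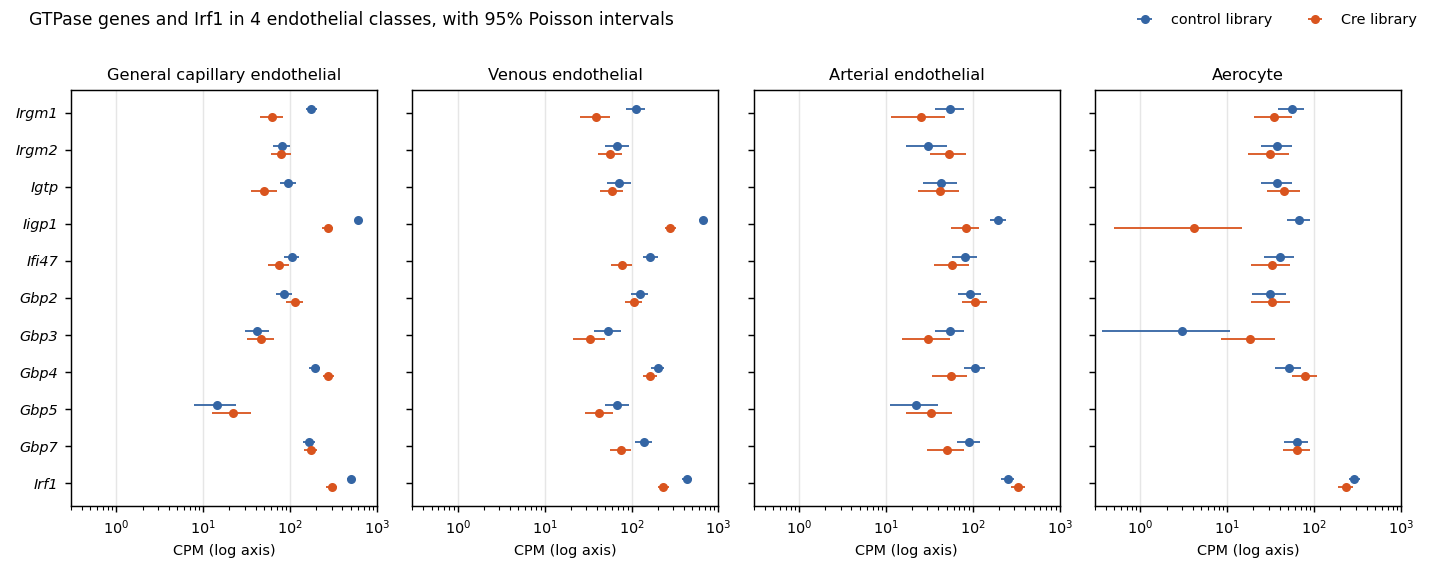
CPM (log axis) of the 10 GTPase genes and Irf1 in 4 endothelial classes, with 95% Poisson intervals, blue for the control and orange for the Cre library. Iigp1 lies lower in the Cre library in all 4 panels and Gbp2 overlaps between libraries in all 4.

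Members of other groups were also lower in venous and general capillary cells. Irf1, the transcription factor that interferon gamma raises through a GAS, had 434 control and 233 Cre CPM in venous cells, a ratio of 0.537 (0.440 to 0.655), and 497 control and 299 Cre CPM in general capillary cells, a ratio of 0.602 (0.511 to 0.707). Arterial Irf1 was not lower, at 251 control and 333 Cre CPM. Isg15, the ubiquitin-like protein that is joined to other proteins in infected cells, had 80.7 control and 27.6 Cre CPM in venous cells, 2.92-fold lower (1.70 to 5.20). Ifit1, which binds foreign RNA caps, had 79.6 control and 42.3 Cre CPM in general capillary cells, a ratio of 0.532 (0.339 to 0.816). All 3 measured Ifit, Oas and Mx genes were counted as lower in venous and in arterial cells, with medians of -1.08 and -0.60. The arterial median lay close to the 1.5-fold limit and rested on few cells. There Ifit1 had a UMI in 13 control and 8 Cre cells, Ifit3 in 9 and 4 and Oasl2 in 17 and 8. The intervals of their thinned shares overlapped between the libraries, so arterial differences in these shares were not detectable at this depth.

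Genes outside the list were lower in the same endothelial cells. A list of 16 immediate early genes, made after the data were seen, summed to 20896 and 11308 CPM in general capillary cells with 16 of 16 lower, to 27884 and 16455 CPM in venous cells with 15 lower, to 27259 and 18444 CPM in arterial cells and to 20559 and 11554 CPM in aerocytes; none of the 16 was at 0 in both libraries. Lymphatic cells had 16325 and 18159.5 CPM. Socs3, which inhibits cytokine receptors through Jak kinases, had 899 control and 280.0 Cre CPM in general capillary cells, a ratio of 0.311 (0.266 to 0.363). The part of the immediate early genes in the endothelial result was not tested.

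In CD4 and CD8 T cells, NK cells and monocytes the median GTPase lay above the all-gene median. Their median was 0.38 in CD4 T cells, 0.28 in CD8 T cells, 0.24 in NK cells, 0.29 in classical and 0.28 in nonclassical monocytes. CD4 T cells had Ifi47 at 27.8 (20.5 to 36.9) control and 75.4 (61.5 to 91.4) Cre CPM, 2.71-fold higher (1.91 to 3.91), which came to 1.53 with cells thinned to 1000 UMIs. CD8 T cells had Gbp4 at 35.3 control and 71.2 Cre CPM, 2.02-fold higher (1.52 to 2.68). In Treg cells, regulatory T cells that carry Foxp3, Igtp had 37.2 control and 72.8 Cre CPM, 1.96-fold higher (1.23 to 3.17), while the group median was -0.18.

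Among monocytes Gbp3 had 33.7 control and 66.5 Cre CPM in the classical class, a ratio of 1.98 (1.46 to 2.68), or 3.57 with cells thinned to 1000 UMIs. Gbp2 had 22.3 control and 50.6 Cre CPM in the nonclassical class, which patrols vessel walls, a ratio of 2.27 (1.58 to 3.27). Neutrophils differed: their Gbp2 had 95.8 control and 58.4 Cre CPM, 1.64-fold lower (1.33 to 2.05). Over all 24 classes with measured GTPases, the group median lay below the all-gene median in 12 and above it in 12, with 15 of 181 pairs higher and 23 lower, and 4 classes lay below when the all-gene median was not taken off. The share of GTPase pairs higher was near that of all genes, and the share lower was above it.

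The Ifit, Oas and Mx genes also lay on both sides. Their median lay below the all-gene median in 11 of 21 classes and above it in 10, with 12 of 85 pairs higher and 16 lower. Oas2 lay within 1.5-fold wherever measured. Ifit1 was higher in 6 classes and lower in 5 of the 18 where it was measured. In AT1 cells Ifit1 had 47.1 (28.4 to 73.6) control and 108 (89.8 to 128) Cre CPM, 2.29-fold higher (1.41 to 3.93). There 15 of 130 control and 54 of 359 Cre cells held a UMI, and 10 cells held 73.7% of the UMIs in the control and 60.3% in the Cre library. After thinning, the share was 2.90% (0.353 to 10.1) of 69 cells and 7.07% (3.92 to 11.6) of 198 cells, with intervals that overlap. AT1 cells are of the Nkx2.1 lineage, and there the group median was 0.18 over 5 measured members.

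Alveolar macrophages and alveolar fibroblasts shared some of the members counted as higher, all at low levels and named after their values were seen. In alveolar macrophages these were Ifit1 (1.18 control and 5.74 Cre CPM), Isg15 (5.72 control and 10.8 Cre CPM) and Rsad2 (0 and 51 UMIs). In alveolar fibroblasts, beside Cxcl10, they were Ifit1 (5.45 control and 13.2 Cre CPM), Ifit3 (8.91 control and 16.6 Cre CPM), Isg15 (5.94 control and 14.6 Cre CPM) and Rsad2 (1 and 23 UMIs). The printed promoters of Ifit1, Ifit3 and Isg15 carry repeated ISRE cores. Those of Irgm1, Oas1a and Bst2 do as well, and these genes were not counted as higher in either class. No promoter is printed for Rsad2, and a link between the motif and the differences was not tested. Club cells had Mx1 and Rsad2 higher on 2 and 37 and 2 and 49 UMIs.

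Mesothelial cells had Oasl2, a relative of the Oas enzymes, at 29.9 (23.8 to 37.1) control and 81.2 (70.2 to 93.5) Cre CPM, 2.72-fold higher (2.09 to 3.56). It was found in 2.45% (0.801 to 5.63) of 204 cells of the control and 6.0% (3.14 to 10.2) of 200 cells of the Cre library after thinning, and in 27.1% and 46.0% without. Venous cells had it at 53.8 control and 24.8 Cre CPM, on 32 and 18 UMIs. In classical monocytes the group median was 0.24 with Ifit1, Ifit2 and Mx1 higher, and in neutrophils it was -0.65 with 5 of 8 lower, Ifit1, Ifit3, Ifit3b, Oasl1 and Oas1a. Cells with UMIs of at least 3 of the 10 genes after thinning made up 1.46% (0.975 to 2.11) of 1913 cells among control and 1.46% (0.801 to 2.44) of 958 cells among Cre neutrophils, and 0.604% (0.0733 to 2.17) of 331 cells and 1.13% (0.234 to 3.27) of 265 cells among classical monocytes. The intervals overlap in both classes.

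For the GTPases the same count of at least 3 genes was 15% (11.1 to 19.6) of 293 cells in control and 11.4% (7.59 to 16.3) of 228 cells in Cre general capillary cells. Venous cells had 12.8% (7.74 to 19.4) of 141 cells and 8.99% (5.23 to 14.2) of 178 cells. These intervals overlap too, so a difference in the share of such cells was not detectable at this depth.

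**Figure D3:**
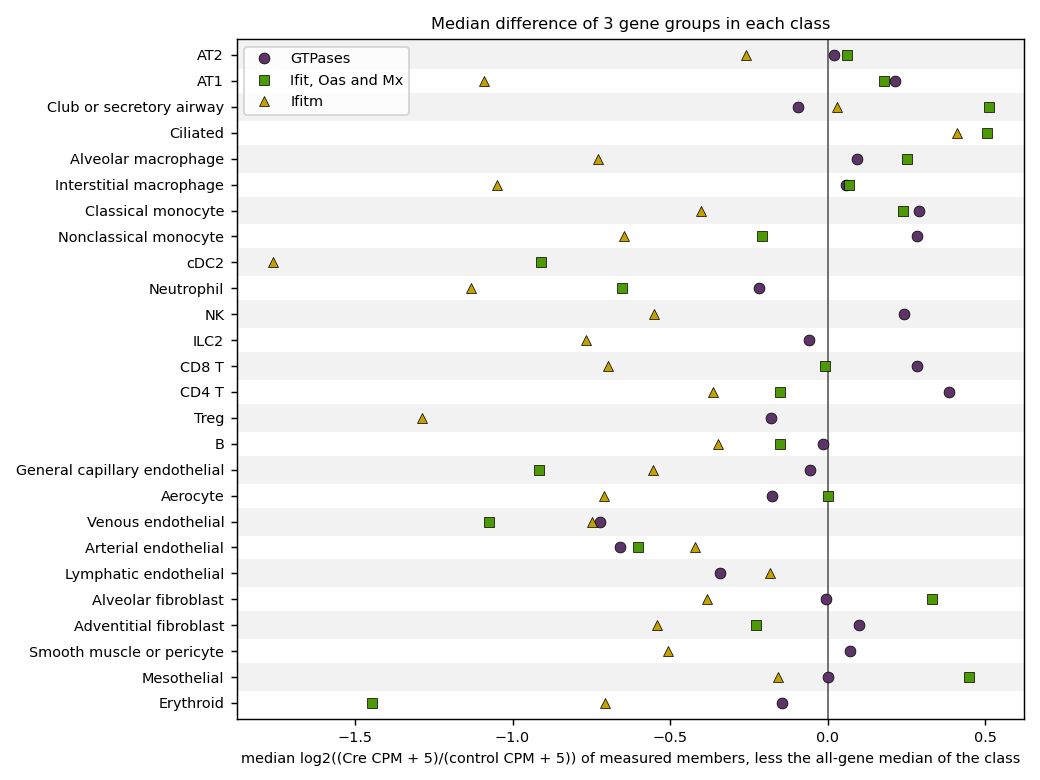
Median log2 difference of the measured GTPases (circles), Ifit, Oas and Mx genes (squares) and Ifitm genes (triangles) in each class, less the all-gene median of that class (0). GTPases lie furthest below in venous (-0.72) and arterial (-0.66) endothelium and furthest above in CD4 T cells (0.38), while Ifitm genes lie below in 24 of 26 classes.

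The Ifitm genes encode small membrane proteins that stop viruses from entering the cell. Of 94 pairs of Ifitm gene and class, 46 were lower and 3 higher in the Cre library. Their median lay below the all-gene median in 24 of 26 classes, the others being club and ciliated cells. In neutrophils, where their sum was highest in the control, all 4 were lower. Ifitm1 had 3409 (3361 to 3456) control and 1615 (1556 to 1676) Cre CPM there, 2.11-fold lower (2.03 to 2.20), and thinned shares of 69.4% (67.2 to 71.4) of 1913 cells and 51.3% (48.0 to 54.5) of 958 cells. Neutrophil Ifitm2 had 3824 control and 2137 Cre CPM and Ifitm3 1327 control and 726 Cre CPM, with ratios of 0.559 (0.540 to 0.578) and 0.547 (0.515 to 0.580). Ifitm6, which is known from myeloid cells, had 863 control and 539 Cre CPM. Depth differed here as well: the median neutrophil held 2574 UMIs in the control and 1503 in the Cre library.

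In cDC2 cells, a class of dendritic cells that present antigen to CD4 T cells, Ifitm3 had 1848 control and 494 Cre CPM, 3.74-fold lower (3.30 to 4.25), and all 4 Ifitm genes were lower. Interstitial macrophages had all 4 lower as well, Ifitm2 at 892 control and 477 Cre CPM and Ifitm3 at 650.3 control and 386 Cre CPM. In classical monocytes Ifitm2 alone of the 4 was counted as lower, at 1802 control and 1182 Cre CPM, a ratio of 0.656 (0.620 to 0.694). Ifitm3, at 4807 control and 4109.6 Cre CPM, lay within 1.5-fold there. Nonclassical monocytes had Ifitm2 at 1711 control and 1119.5 Cre CPM. Their Ifitm1 had 104 control and 43.2 Cre CPM, a ratio of 0.414 (0.310 to 0.546). It came to 0.693 with classes taken from clusters and 0.783 with a neutrophil profile subtracted. Only 59.6% of the gated cells of the cluster used were nonclassical and no cluster took the classical name, so 0.693 is not a value of nonclassical cells alone.

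Endothelial Ifitm3 was lower in general capillary cells (3063 control and 2133 Cre CPM), in aerocytes (741 control and 472 Cre CPM) and in venous cells, where Ifitm2 had 2259 control and 1437 Cre CPM. Arterial Ifitm3, at 3115 control and 2698 Cre CPM, was within 1.5-fold. In fibroblasts the ratios were nearer to 1. Alveolar fibroblasts had Ifitm3 at 2094 control and 1596 Cre CPM, a ratio of 0.762 (0.733 to 0.792), and adventitial fibroblasts at 1753 control and 1296 Cre CPM, a ratio of 0.740 (0.708 to 0.773). Mesothelial Ifitm3 had a ratio of 0.909 (0.875 to 0.945).

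In airway epithelium Ifitm1 was higher. Club cells, which secrete into the airway, had Ifitm1 at 60.1 (54.4 to 66.3) control and 156 (146 to 166) Cre CPM, 2.59-fold higher (2.30 to 2.92), with a ratio of 1.68 with TMM factors. Ciliated cells had Ifitm1 at 50.6 control and 100.2 Cre CPM, a ratio of 1.98 (1.45 to 2.72), or 1.31 with cells thinned to 1000 UMIs, and Ifitm3 at 375 control and 555 Cre CPM. AT2 cells had Ifitm3 at 44.5 control and 68.7 Cre CPM, a ratio of 1.54 (1.39 to 1.71), within 1.5-fold of the all-gene ratio. In AT1 cells Ifitm1 had 188 control and 6.85 Cre CPM, 27.5-fold lower (13.3 to 66.0), but the 76 control UMIs came from 6 of 130 cells.

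Neutrophil marker transcripts were lower in most of the same classes. The 8 neutrophil markers summed to 181448 and 97547 CPM in the control and Cre neutrophils themselves. Outside neutrophils their sum ran from 167.9 to 3728 CPM in the control and from 51.3 to 1238 CPM in the Cre library, and it was lower in the Cre library in all classes but ILC2 (168 and 204 CPM) and lymphatic endothelial cells (827 and 1111 CPM). It was 2946 and 418 CPM in AT1 cells, 3254 and 299.5 CPM in Treg cells, 2451 and 304 CPM in cDC2 cells, 1139 and 419.6 CPM in venous and 941 and 254 CPM in general capillary cells. Relative to the marker level of neutrophils of the same library, which was itself lower in the Cre library, the sum was higher in the Cre library in 5 of 25 classes: ILC2, lymphatic endothelial cells, classical monocytes (0.441% and 0.578%), CD4 T cells (0.133% and 0.191%) and alveolar fibroblasts (1.22% and 1.24%). One of the 8 was at 0 in both libraries in arterial cells, and in no other class. With a neutrophil profile subtracted in proportion to these markers, an alternative added after the data were seen, 9 of 86 Ifitm pairs were higher and 36 lower, and the Ifitm median turned to 0.14 in alveolar macrophages and 0.36 in CD8 T cells. In Treg cells the Ifitm2 ratio went from 0.455 to 0.722 with cells thinned to 1000 UMIs and 0.999 with a neutrophil profile subtracted. The cDC2 ratio of Ifitm3 stayed within 0.226 to 0.277 over the alternatives run, subtraction included. Classes taken from clusters were not among these, since cDC2 cells made up only 35.6% of the gated cells of their cluster. Beyond these values the part of neutrophil transcripts in the Ifitm result was not tested.

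**Figure D4:**
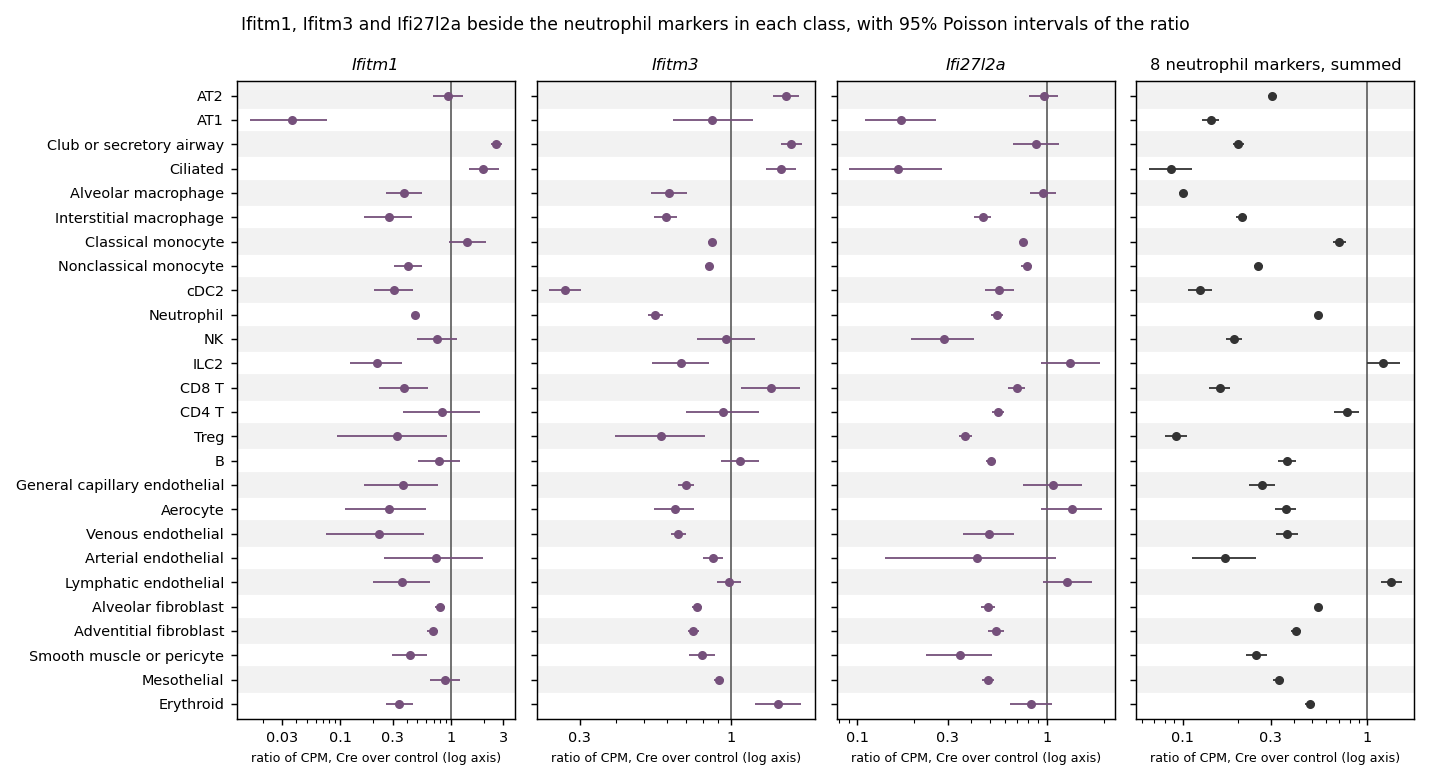
Ratio of CPM, Cre over control (log axes, line at 1), of Ifitm1, Ifitm3 and Ifi27l2a and of the summed neutrophil markers in each class, with 95% Poisson intervals. Ifitm1 is higher in club and ciliated cells, with ratios of 2.59 and 1.98, and the neutrophil markers are below 1 in all classes but ILC2 and lymphatic endothelium.

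Of the 13 other antiviral effectors, Ifi27l2a was lower in most classes. It encodes a small protein of mitochondrial and other membranes, and it was lower in 17 of 26 classes and higher in none. Treg cells had 3151 (3029.5 to 3276) control and 1172 (1095 to 1253) Cre CPM, 2.69-fold lower (2.49 to 2.91), and thinned shares of 70.8% (61.5 to 79.0) of 113 cells and 44.8% (37.3 to 52.5) of 174 cells. CD4 T cells had 1231 control and 681 Cre CPM, a ratio of 0.553 (0.511 to 0.598), with neutrophil markers at 242 and 187 CPM, or 0.133% and 0.191% of the level in neutrophils of the same library, and thinned shares of 46.2% (41.0 to 51.5) of 359 cells and 35.2% (30.8 to 39.8) of 454 cells. B cells had 827 control and 421 Cre CPM, 1.96-fold lower (1.85 to 2.08), with neutrophil markers at 281 and 103 CPM and thinned shares of 42.2% (39.8 to 44.5) of 1715 cells and 25.5% (23.2 to 27.9) of 1404 cells. In these 3 classes the intervals of the thinned shares did not overlap between the libraries.

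Mesenchymal cells had Ifi27l2a ratios of 0.489 (0.448 to 0.534) in alveolar fibroblasts, from 504 control and 246 Cre CPM, of 0.539 (0.488 to 0.596) in adventitial fibroblasts and of 0.490 (0.455 to 0.527) in mesothelial cells. Over the alternatives run these ratios stayed between 0.441 and 0.635. Smooth muscle or pericyte cells gave 0.347 but came to 0.957 with cells thinned to 1000 UMIs and 0.928 with a gate margin of double the size. In ciliated cells it had 80.7 control and 13.2 Cre CPM, with 98% of the control UMIs in 10 cells. Also counted as lower were AT1 cells, where all 71 control UMIs came from 9 cells, and arterial cells, on 19 and 6 UMIs. Erythroid barcodes were counted as lower at a ratio of 0.822 (0.639 to 1.07) that came to 1.70 with classes taken from clusters. Ratios in lymphatic endothelial cells, aerocytes and ILC2 were 1.29, 1.35 and 1.32, within 1.5-fold of the all-gene median.

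Isg15 was lower in 12 and higher in 3 of 24 classes. Neutrophils had it at 144 control and 74.2 Cre CPM, 1.94-fold lower (1.61 to 2.35). Isg20, an exonuclease that breaks down viral RNA, was lower in 8 of 20 classes and higher in 1: club cells had 56.3 control and 119 Cre CPM, a ratio of 2.12 (1.87 to 2.41), or 1.38 with TMM factors. Ciliated cells had it at 72.7 control and 109 Cre CPM, a ratio of 1.5, or 2.39 with cells thinned to 1000 UMIs. Bst2, known as tetherin because it holds budding viruses at the cell surface, was lower in 5 of 26 classes and higher in none. It had 436 control and 242 Cre CPM in cDC2 cells and 689 control and 469 Cre CPM in arterial cells, ratios of 0.554 (0.451 to 0.679) and 0.680 (0.562 to 0.821).

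Rtp4, an antiviral chaperone of membrane receptors, was lower in 8 of 23 classes and higher in 1, ciliated cells. It had 95.9 control and 41.4 Cre CPM in venous cells, a ratio of 0.432 (0.268 to 0.683) that came to 0.990 with cells thinned to 1000 UMIs. Xaf1, which promotes cell death, was lower in 6 of 24 classes and Zbp1, a sensor of left-handed nucleic acids, in 4 of 16, with mesothelial cells alone counted as higher for Zbp1 and 0 classes for Xaf1. The 6 classes of Xaf1 take in erythroid barcodes, at a ratio of 1.06. Nonclassical monocytes had Zbp1 at 83.2 control and 54.6 Cre CPM. Rsad2 was higher in 4 and lower in 2 of 9 classes. In erythroid barcodes, where the all-gene median was 0.85, its ratio was 0.634 (0.543 to 0.740) and 0.330 with TMM factors. Usp18, which removes Isg15 and damps the type I receptor, was lower in 2 of 9 classes, and Cmpk2, a nucleotide kinase encoded beside Rsad2, in 1 of 12. Ifi44 was higher in 1 and lower in 1 of 8, Ifi204 was lower in 2 of 8, with erythroid barcodes (ratio 1.31) among them, and Ifi211 in 1 of 6. The last 2 are DNA sensors of 1 family with near-copies in the genome, so their counts are uncertain. Counts of 1 or 2 among so few classes are not read as results about these genes.

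The 4 transcription factors had a median below the all-gene median in 18 of 26 classes. Irf7, which carries the type I response forward, lay below it in all 19 classes where it was measured and was counted as lower in 7. NK cells had it at 61.1 control and 46.6 Cre CPM, a ratio of 0.762 (0.557 to 1.04), within 1.5-fold of the all-gene median. Irf1 was lower in 4 of 26 classes. Beside venous and general capillary cells these were interstitial macrophages (155 control and 98.8 Cre CPM) and classical monocytes (128 control and 78.0 Cre CPM). Mesothelial Irf1 had 291 control and 409 Cre CPM, a ratio of 1.41 (1.28 to 1.54), within 1.5-fold. Irf9 was higher in 1 and lower in 2 of 26 classes, and Stat2, its partner at the ISRE, was higher in 2 of 21.

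Cxcl10 draws T cells and NK cells that carry Cxcr3. In alveolar fibroblasts, the mesenchymal cells of the alveolar wall, it had 36.1 (28.3 to 45.4) control and 299.6 (283 to 317) Cre CPM, 8.29-fold higher (6.54 to 10.6). The UMIs behind it numbered 73 and 1229. Over the alternatives run the ratio lay between 8.03 and 11.1. The transcripts came from few cells: 24 of 640 control and 100 of 980 Cre cells held a UMI, and 10 cells held 80.8% of the UMIs in the control and 53.7% in the Cre library. After thinning, the share was 1.70% (0.686 to 3.47) of 412 cells in the control and 8.05% (6.20 to 10.2) of 745 cells in the Cre library, against 0.233% and 0.356% of B cells, whose thinned cells numbered 1715 and 1404. Cells with Cxcl10 were thus more frequent in the Cre library beyond counting error, at median depths of 1682.5 and 3503 UMIs per alveolar fibroblast.

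Adventitial fibroblasts, which line vessels and airways, had Cxcl10 at 114 control and 193 Cre CPM, 1.69-fold higher (1.45 to 1.96). Mesothelial cells, with the highest level of all, had 529.7 control and 626 Cre CPM, a ratio of 1.18 (1.10 to 1.27). In monocytes it was lower. Classical monocytes had 312 (291 to 334) control and 102 (86.2 to 120.5) Cre CPM, 3.05-fold lower (2.55 to 3.67), with thinned shares of 14.2% (10.6 to 18.4) of 331 cells and 6.79% (4.08 to 10.5) of 265 cells. Nonclassical monocytes had 175 control and 55.3 Cre CPM, 3.16-fold lower (2.49 to 4.05). Alveolar macrophages had 238 control and 197 Cre CPM, a ratio of 0.828 (0.768 to 0.893). Treg cells (117 control and 76.9 Cre CPM) and ILC2 (123 control and 74.6 Cre CPM) were counted as lower. AT2 cells were counted as higher at a low level: they held 24 and 121 UMIs, 1.76 control and 8.84 Cre CPM, in 19 of 1408 and 53 of 1659 cells. Cxcl9, the chemokine most tied to interferon gamma, reached 20 UMIs in alveolar macrophages alone, at 2.96 control and 2.87 Cre CPM.

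**Figure D5:**
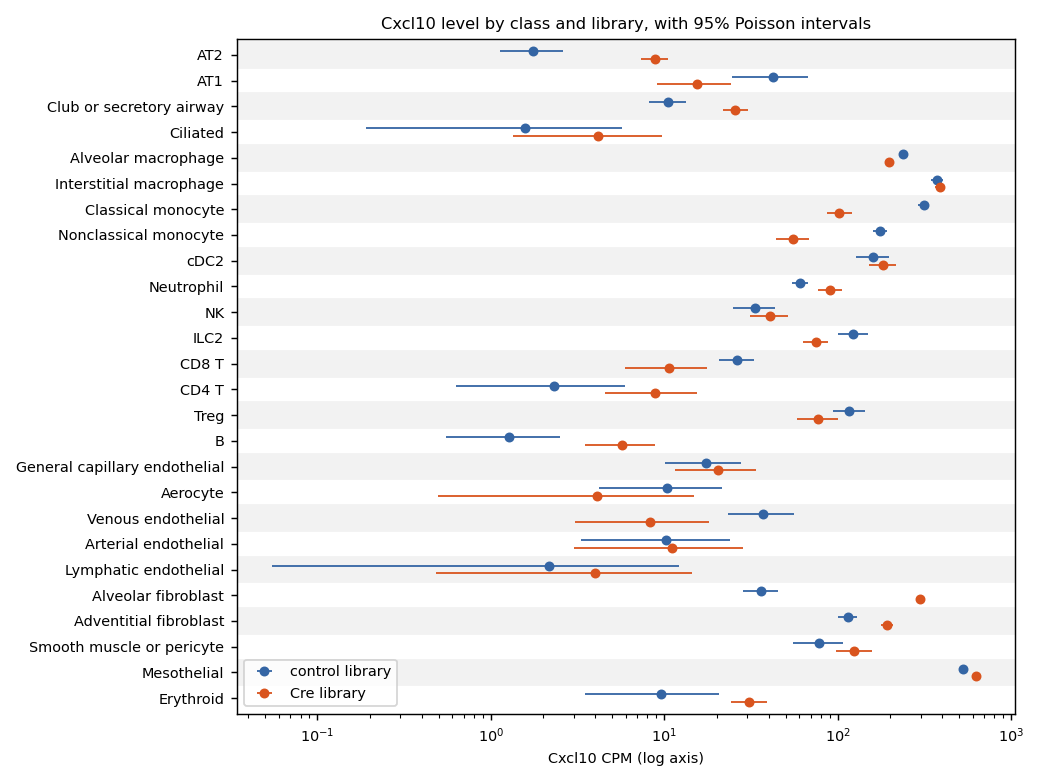
Cxcl10 CPM (log axis) in each class with 95% Poisson intervals, blue for the control and orange for the Cre library. Alveolar fibroblasts stand at 36.1 control and 299.6 Cre CPM, and the 2 monocyte classes are lower in the Cre library.

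Genes of antigen processing lay within 1.5-fold in most pairs. Psmb8 and Psmb9, catalytic subunits of the immunoproteasome that cuts peptides for class I molecules, and Tap1, which carries the peptides into the endoplasmic reticulum, had a median below the all-gene median in 24 of 26 classes, with 14 of 75 pairs lower and 1 higher. Psmb8 was lower in 8 of 26 classes. NK cells had it at 336 control and 238 Cre CPM, a ratio of 0.709 (0.620 to 0.809), and Treg cells at 377 control and 279 Cre CPM, a ratio of 0.739 (0.616 to 0.886). Psmb9 was lower in 6 of 25 classes. B cells were not among them: Psmb9 had 93.1 control and 78.6 Cre CPM there, within 1.5-fold of the all-gene median. Tap1 was higher in aerocytes, at 65.6 control and 117 Cre CPM, a ratio of 1.78 (1.18 to 2.70), or 2.83 with cells thinned to 1000 UMIs, and had a ratio of 1.76 (1.39 to 2.25) in CD4 T cells.

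By lineage, the counts outside endothelium were as follows. AT2 cells, in which the Cre acts, had 1 of 34 measured members higher and 0 lower, against 3.85% and 3.13% of all genes. The member counted as higher was Cxcl10, and both shares were near or under the background. AT1 cells had 4 of 23 measured members higher and 5 lower, against 14.0% and 10.8% of all genes. Club cells had 5 of 28 measured members higher and 1 lower, against 5.59% and 4.44% of all genes, and ciliated cells 2 of 15 measured members higher and 3 lower, against 7.31% and 7.69% of all genes.

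Macrophages and monocytes spanned a wide range. Alveolar macrophages had 3 of 35 measured members higher and 3 lower, against 3.92% and 3.31% of all genes. Interstitial macrophages had 3 of 38 measured members higher and 8 lower, against 6.27% and 6.56% of all genes. Classical monocytes showed 6 of 40 measured members higher and 5 lower, against 4.9% and 6.01% of all genes, and nonclassical monocytes 1 of 37 measured members higher and 7 lower, against 4.39% and 5.37% of all genes. The cDC2 class, with 59 control and 104 Cre cells, had 0 of 16 measured members higher and 10 lower, against 13% and 11.7% of all genes. Neutrophils had 0 of 40 measured members higher and 20 lower, against 5.48% and 6.39% of all genes, the highest number lower after venous endothelial cells.

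Lymphocytes had fewer members on the higher side than on the lower. NK cells had 0 of 27 measured members higher and 8 lower, against 6.67% and 6.54% of all genes. ILC2, innate lymphoid cells that make type 2 cytokines, had 0 of 22 measured members higher and 7 lower, against 9.8% and 8.95% of all genes. CD8 T cells had 3 of 34 measured members higher and 6 lower, against 5.83% and 6.39% of all genes, while CD4 T cells had 2 of 27 measured members higher and 3 lower, against 5.48% and 6.44% of all genes. Treg cells had 1 of 26 measured members higher and 14 lower, against 11.4% and 11.3% of all genes, and B cells had 1 of 38 measured members higher and 3 lower, against 1.46% and 2.84% of all genes.

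Fibroblasts and mesothelial cells had members on both sides. Alveolar fibroblasts had 5 of 36 measured members higher and 2 lower, against 7.49% and 5.8% of all genes. Adventitial fibroblasts had 2 of 32 measured members higher and 5 lower, against 5.03% and 5.96% of all genes. Smooth muscle cells and pericytes, gated together, had 0 of 12 measured members higher and 4 lower, against 13.3% and 12.7% of all genes. Mesothelial cells had 6 of 38 measured members higher and 2 lower, against 3.58% and 3.42% of all genes. Erythroid barcodes had 0 of 23 measured members higher and 13 lower, against 16.6% and 15.2% of all genes. Lower there means below an all-gene median of 0.85, not always fewer CPM. Xaf1 (14.3 control and 15.2 Cre CPM) and Ifi204 (7.96 control and 10.4 Cre CPM) were among those counted as lower.

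The other 44 genes of the interferon pathway, 9 interferons, 6 receptor chains, 5 kinases and Stats, 6 inhibitors, 12 sensors and adaptors and 6 further factors, had smaller shares on the lower side than the members. Of 702 measured pairs, 48 were higher and 42 lower, set beside 49 and 188 of 760 for the members. Among all genes 7.39% of such pairs were higher and 7.12% lower, so the pathway counts lay near the background on both sides. Only 2 of the 9 interferons reached 20 UMIs in any class. Ifng was highest in NK cells, at 107 control and 90.7 Cre CPM, a ratio of 0.847 (0.675 to 1.06). CD8 T cells had 30.8 control and 26.3 Cre CPM, and CD4 T cells had 6.95 control and 19.0 Cre CPM on 12 and 26 UMIs. Ifnb1 had 42.7 control and 8.84 Cre CPM in cDC2 cells, on 23 and 6 UMIs. Receptors were lower in 9 and higher in 1 of 134 pairs, with the lower share near that of all genes and the higher share under it. Stat3, which serves other cytokines as well, was higher in 6 of 26 classes and lower in none, with 203 control and 354 Cre CPM in alveolar fibroblasts.

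Socs3 was lower in 13 of 26 classes, among them all 4 blood endothelial classes and both fibroblast classes, and higher in 1. In alveolar fibroblasts it had 320.3 control and 138 Cre CPM, a ratio of 0.430 (0.383 to 0.482). Alveolar macrophages had it higher, at 30.8 control and 251 Cre CPM, a ratio of 8.15 (6.92 to 9.66). Socs1, the inhibitor that interferon gamma induces, was lower in 2 of 15 classes, with 33.7 control and 9.56 Cre CPM in general capillary cells on 33 and 7 UMIs.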

How the data were processed

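Raw UMI counts per gene and barcode were deposited by the authors as 1 matrix per library. Cell Ranger 3.1.0, STAR and build mm10 are named per the submitters' processing notes without a role, and the matrix headers name software version 3.0.0; the sources used here do not give the annotation or filters. Barcodes with at least 200 genes, at least 500 UMIs and at most 20% mitochondrial UMIs were kept, and doublets called by Scrublet (420, or 3.09%, in the control and 454, or 2.70%, in the Cre library) were removed with scanpy 1.11.5. Each cell took the class with the highest mean marker z-score (limits -1 and 6), with a margin of 0.25, at least 2 markers and a score of at least 0.5.

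Counts were summed per class and library, with 1 library per genotype and no test. Intervals of counts and ratios are exact Poisson and those of shares exact binomial (Clopper-Pearson), at 95%. The ratios were also run on simulated counts. These were independent Poisson draws without spread between cells or mice, so that run cannot show how such spread affects the intervals. Per class, up to 8 members with at least 20 UMIs, at least 50 CPM in the higher library and an interval leaving out the all-gene median ratio were eligible for naming, with members of other groups by UMI count, and level values name the 3 members with the highest CPM of each group. Genes outside this rule were named after their values were seen. Near-identical genes (Ifit3 and Ifit3b, the Gbp genes, Oas1a, Ifi204 and Ifi211) may share reads. Sequences are from RefSeq on GRCm38.p6. Alternatives were other gates, cell filters, thresholds, pseudocounts, edgeR 4.0.16 TMM factors, thinning to 1000 UMIs and, added after the data were seen, neutrophil subtraction. Classical monocytes, cDC2 and Treg cells have no values with classes taken from clusters. None of these gates made up a majority of the gated cells of a cluster. The members and lists were chosen with earlier results of these data known. Classes with under 50 cells in a library were left out of comparisons. The values of 1 gene of the pathway list are not reported here.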

Additional observations from a re-analysis of the deposited data

Results flagged for a closer look

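For 9 members the ratio of Cre over control CPM lay above 1 in 1 class and below 1 in another, with intervals on opposite sides of the all-gene medians of those classes. The differences between classes were not tested, since each library is 1 sample. Among GTPases, Igtp had a ratio of 1.96 in Treg and 0.532 in general capillary cells, Ifi47 of 2.71 in CD4 T and 0.469 in venous cells, Gbp2 of 2.27 in nonclassical monocytes and 0.609 in neutrophils, and Gbp4 of 2.02 in CD8 T and 0.523 in arterial cells. Ifit1 had 2.29 in AT1 cells, where 10 cells held 73.7% of its control and 60.3% of its Cre UMIs, and 0.532 in general capillary cells. Oasl2 had 2.72 in mesothelial and 0.462 in venous cells. Isg20 had 2.12 in club cells and 0.469 in erythroid barcodes, or 1.38 and 0.245 with TMM factors. Ifitm1 had 2.59 in club cells and 0.0363 in AT1 cells, where 6 control cells held its UMIs. Cxcl10 had 8.29 in alveolar fibroblasts and 0.316 in nonclassical monocytes.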

How the results depend on the processing

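No paired analysis was possible because each genotype has 1 library. Of the main counts, 111 values under the alternatives were within 1.5 times the main count and 33 were not, for which the cause was not tested beyond what each setting removes. For all members, 49 pairs higher became 30 of 354 with thinning, 16 with a pseudocount of 20 CPM, 83 of 1196 with no filter, 14 at 2-fold and 76 with the all-gene median not taken off, while 188 lower became 104, 117 and 83 with thinning, the pseudocount and 2-fold. For GTPases, 12 classes below became 4 with the median not taken off; 15 pairs higher became 9, 3, 24, 3 and 24 under the same 5 settings, and 23 lower became 15, 15 and 9. For Ifit, Oas and Mx, 11 of 21 classes below became 5 of 7 with thinning, 19 of 26 with no filter and 5 of 14 at 50 UMIs; 12 pairs higher became 2, 5, 19 and 5 with thinning, the pseudocount, no filter and 2-fold, and 16 lower became 5, 7, 48 and 4 under those and 9 at 50 UMIs. For Ifitm, 3 pairs higher became 0 at 2-fold and 9 with neutrophil subtraction, and 46 lower became 30 with thinning and 29 at 2-fold. Of class medians, 2211 values moved little, 55 moved and 6 turned sign from a main median at least 1.5-fold from the all-gene median. These 6 were Ifitm in alveolar macrophages (0.073 thinned, 0.14 subtracted) and CD8 T cells (0.36 subtracted), chemokines in CD8 T cells (0.078 by clusters), and in erythroid barcodes all members (0.064) and Ifitm (0.14) with the median not taken off. Main medians nearer to the all-gene median that changed sign, as in the GTPase classes above, were not counted as turned. Of named ratios, 932 moved little, 169 moved and 10 crossed over. Thinning gave 1.64, 1.08 and 1.16 for Ifitm2 in club, ciliated and NK cells, 2.20 for arterial Irgm1, 1.04 and 1.22 for Irf1 and Ifitm1 in alveolar fibroblasts and 2.02 for erythroid Ifitm3; clusters gave 1.26 for Bst2 in B cells, 1.07 for arterial Gbp4 and 2.14 for erythroid Ifitm3. Depth limits members with few UMIs, and thinning left out the shallower cells, 318 of 611 in control general capillary cells.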

Other observations

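Some members stood out in classes with too few cells to compare. Plasmacytoid dendritic cells, the main makers of type I interferon, had 50 control and 44 Cre cells, with Bst2, one of their known surface markers, at 4141 control and 3986 Cre CPM. They had Ifi27l2a at 1182 control and 588 Cre CPM and Irf7, known for high basal levels there, at 169 control and 127 Cre CPM. The gate for macrophages with Spp1 and Arg1 found 424 cells in the Cre library and 0 in the control; those cells carried more UMIs of alveolar macrophage markers than of their own. They had Ifitm2 at 137 CPM, Bst2 at 104 CPM, Psmb8 at 95.2 CPM and Ifi204 at 89.3 CPM.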
